A study of Homo sapiens with 4 samples.

Results

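The epithelial-to-mesenchymal transition (EMT) gene set described here holds 10 genes, chosen by symbol from the deposited count matrix of 58735 genes. It comprises the classical cadherins CDH1, CDH2 and CDH3, the mesenchymal markers VIM and FN1, and the EMT transcription factors ZEB1, ZEB2, SNAI1, SNAI2 and TWIST1. All 10 were found, 8 had at least 1 count, and 5 (CDH1, CDH3, FN1, ZEB1 and SNAI1) passed the expression filter and were tested. The cells were SW1990, an established human pancreatic adenocarcinoma line grown in DMEM, and the series concerns growth and the Hippo-YAP pathway. One group of 2 libraries received vehicle, whose composition the labels do not give, and the other group of 2 libraries received gomisin G (10 µM), which is a plant lignan from Schisandra, both for 24 h. The comparison asks whether transcripts of this programme differ between gomisin G and vehicle in a single line cultured without stroma.

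E-cadherin, encoded by CDH1, joins epithelial cells by calcium-dependent binding between neighbours and anchors to actin through catenins. In EMT the repressors of the SNAIL, ZEB and TWIST families bind E-box sequences in epithelial genes such as CDH1, while N-cadherin (CDH2), the intermediate filament protein vimentin (VIM) and the matrix glycoprotein fibronectin (FN1) are induced. In pancreatic ductal carcinoma this programme is known for its association with poor differentiation, invasion and drug resistance.

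Library totals ran from 14580848 to 15245770 counts. A limit of 3 counts, which is what a count of 0 allows, corresponds to 0.197 to 0.206 CPM (a count scaled by library size), and intervals and limits of this kind cover counting error only. Replicates differed more with gomisin G than with vehicle, with a chi-square per gene of 37.2 against 6.98 over genes with at least 20 counts, so neither pair was 1 library deposited more than once. No label ties the replicates to separate cultures, and the spread behind each p-value may thus be technical. Of the epithelial markers, KRT8 was at 861 and EPCAM at 203 RPKM in vehicle, where RPKM is CPM per kilobase of gene length, although the duct keratin KRT7 was at only 0.224 RPKM. Of the markers of other cell types, PTPRC and CD3E of immune cells, KDR and TEK of endothelium, and COL1A2, LUM, THY1 and POSTN of fibroblasts had 0 counts in every library. Summed over each marker list, immune genes (3 of 5 with counts) gave 4.67 to 6.26 CPM per library, mostly from CD14, endothelial genes (4 of 6) 4.14 to 6.14 CPM, mostly from CLDN5, acinar genes (3 of 5) 0.336 to 0.898 CPM and islet genes (2 of 4) 0 to 0.404 CPM. Fibroblast genes (6 of 10 with counts) gave 4.83 to 12.1 CPM, mostly from COL1A1 and PDGFRB, so not all fibroblast markers were at 0. The 8 duct markers summed to 6669 to 10839 CPM, mostly from KRT8 and KRT18.

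The cells carried an epithelial pattern of these genes in both groups. CDH1 and CDH3 were abundant, FN1 was low, ZEB1 and SNAI1 lay near the limit of the filter, VIM, ZEB2 and SNAI2 had from 0 to 12 counts per library, and CDH2 and TWIST1 had 0 counts in all 4 libraries. None of the 5 tested genes was called by edgeR's quasi-likelihood test at an adjusted p below 0.05, a threshold that 1.83% of the 15721 tested genes passed (287 genes, of which 145 or 0.922% rose and 142 or 0.903% fell). At an unadjusted p below 0.05 the count was also 0 of 5, against 20.6% of all tested genes, and DESeq2 and limma voom called 0 as well. The count rested on 1 library: without gomisin G replicate 2, whose fit takes its spread from the vehicle pair, 3 of 6 tested genes of the set (CDH1, FN1 and VIM) passed, against 38.6% of all genes tested (6322 of 16377).

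**Figure D1:**
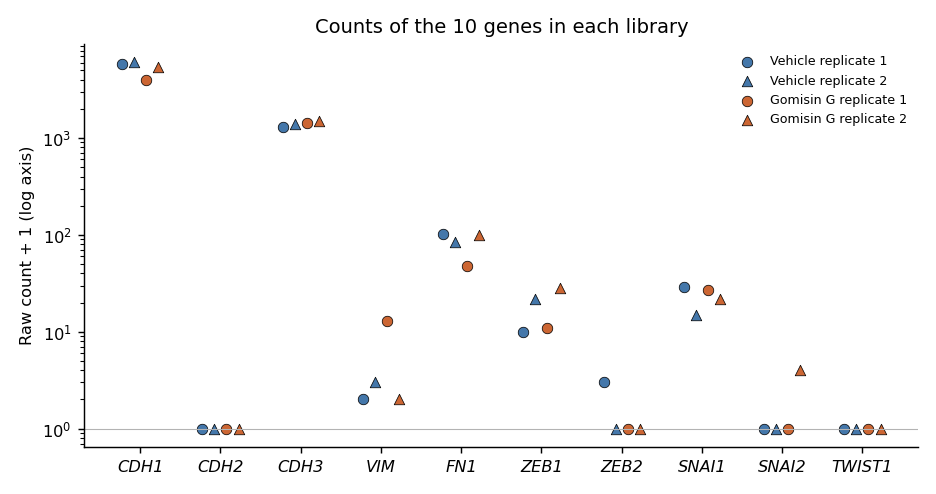
Raw counts plus 1 on a log axis for each of the 10 genes, with circles for replicate 1, triangles for replicate 2, blue for vehicle and orange for gomisin G. CDH1 and CDH3 lie highest, between 1307 and 6047 counts, and CDH2 and TWIST1 rest on the line of 0 counts in all 4 libraries.

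CDH1 (ENSG00000039068, protein-coding, chromosome 16, 68737225 to 68835548, plus strand, GRCh38) had 5751 and 6047 counts with vehicle and 3930 and 5439 counts with gomisin G. Scaled to library size these were 397 and 407 CPM with vehicle and 271 and 343 CPM with gomisin G. Both gomisin G libraries lay below both vehicle libraries, replicate 1 furthest, and such a separation in either direction was found in 54.2% of tested genes. The means were 402 ± 7.22 and 307 ± 50.8 CPM (SD, n = 2 libraries each), a log2 change of -0.39 (SE 0.18, 95% interval -0.80 to 0.03, edgeR adjusted p = 0.271). The difference therefore did not pass the test, and its interval reaches from a fall of 0.80 on the log2 scale to about no change. Against the vehicle mean of log2 CPM, gomisin G replicate 1 lay at -0.57 and replicate 2 at -0.23. Leaving out treated replicate 2 gave -0.56 (adjusted p = 1.47e-05), and leaving out treated replicate 1 gave -0.23 (adjusted p = 0.166), so both the size and the call turned on which treated library was kept.

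CDH3 encodes P-cadherin, a classical cadherin of basal epithelial layers that is found in many pancreatic carcinomas. It neighbours CDH1 on chromosome 16 (68636189 to 68722616, plus strand), and 14608 bases separate the end of CDH3 from the start of CDH1. It had 90.2 and 93.3 CPM with vehicle and 99.7 and 94.8 CPM with gomisin G. The gomisin G libraries lay slightly above the vehicle libraries without overlap. The log2 change was 0.08 (SE 0.15, 95% interval -0.26 to 0.43, adjusted p = 0.785), the narrowest interval among the 5 tested genes.

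The balance between the neighbouring cadherin genes was read from the same libraries as a ratio that needs no scaling. There were 4.400 and 4.36 CDH1 counts for each CDH3 count with vehicle, and 2.72 and 3.62 with gomisin G. The ratio was lower in both treated libraries, at 3.17 ± 0.636 against 4.38 ± 0.0286 (SD, n = 2). An exact two-sided permutation test of the log2 ratio gave p = 0.333, the smallest value that 2 against 2 libraries can give. Per length, CDH1 made up 81.6 and 81.5% of the summed level of CDH1, CDH2 and CDH3 with vehicle and 73.3 and 78.5% with gomisin G. Of these 3 genes CDH3 made up the rest, and other cadherins are not counted in this share.

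**Figure D2:**
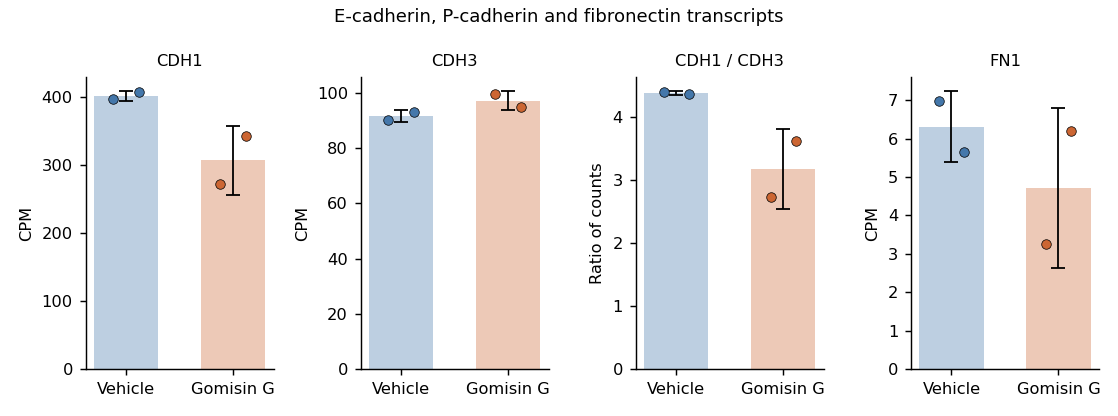
Bars give the mean and error bars the SD of 2 libraries (points) for CDH1, CDH3 and FN1 in CPM and for the ratio of CDH1 to CDH3 counts. CDH1 and the ratio are lower in both gomisin G libraries, whereas 1 gomisin G library overlaps vehicle for FN1.

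CDH2 (chromosome 18, 27950966 to 28177446), the N-cadherin gene whose gain marks the cadherin switch, had 0 counts in each of the 4 libraries. With the limit of 3 counts over the 2 vehicle libraries, its level was below 0.0206 RPKM, so CDH1 at 64.8 ± 1.30 RPKM was at least 3150-fold higher per length. CDH2 was likewise at 0 with gomisin G, and no switch from E- to N-cadherin transcripts was detectable at this depth.

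Among 20 further cadherin genes, 12 had counts and 4 were tested. CDH17, the liver-intestine cadherin of digestive epithelium, had a level per length of 51.5 ± 6.01 RPKM with vehicle against 64.8 ± 1.30 for CDH1. With gomisin G the order of the means turned, at 66.6 ± 8.13 RPKM for CDH17 and 50.04 ± 10.9 for CDH1. With these deposited lengths the libraries of the 2 genes overlapped in neither group. With the lengths of principal transcripts, an alternative chosen after seeing the data, the means were 54.4 RPKM for CDH17 and 81.8 for CDH1 with vehicle, and 70.4 and 63.2 with gomisin G. At those lengths the gomisin G libraries of the 2 genes overlapped. The order of CDH17 and CDH1 was not tested. The log2 change of CDH17 was 0.36 (SE 0.17, adjusted p = 0.265). CDH24 followed CDH3 at 10.4 RPKM with vehicle, and every other cadherin was below 1 RPKM. CDH17 and CDH24 are singled out here after their values were seen.

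CDH7, a classical cadherin best known from the nervous system, was the 1 of these 4 that was called, against 1.83% of all tested genes. It had 6.69 and 8.21 CPM with vehicle and 2.83 and 2.40 CPM with gomisin G, with no overlap. It fell by 1.51 on the log2 scale (SE 0.27, adjusted p = 0.0386). The call was lost without vehicle replicate 2 (adjusted p = 0.180), where the log2 change was -1.36, and narrowly with limma voom (adjusted p = 0.0502). At 0.511 RPKM in vehicle CDH7 contributed little to the cadherin total.

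**Figure D3:**
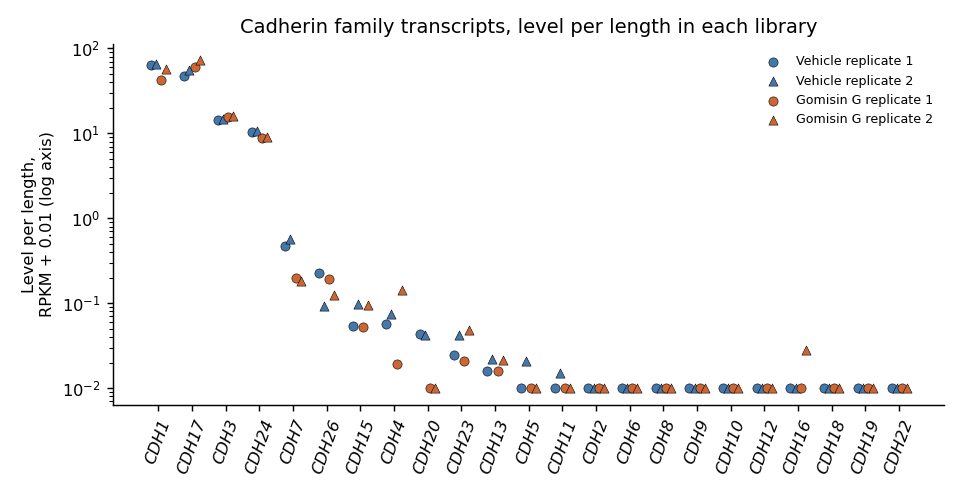
Level per length (RPKM plus 0.01, log axis) of CDH1, CDH2, CDH3 and 20 further cadherin genes in each library, ordered by the vehicle mean. CDH1, CDH17, CDH3 and CDH24 stand above all others, CDH7 is lower in both gomisin G libraries, and CDH2 is at 0.

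Most of the tested catenin and adherens junction genes were not called. Of 18 catenin and adherens junction genes 15 were tested, 1 rose and 1 fell, and the median log2 change was -0.06 against 0.01 over all tested genes. Over all tested genes edgeR called 1.83%. An unadjusted p below 0.05 in edgeR was found for 5 of the 15, against 20.6% of all tested genes. The β-catenin gene CTNNB1, named after its value was seen, had 409 and 461 CPM with vehicle and 399 and 435 CPM with gomisin G, which did not pass the test (adjusted p = 0.870). ARVCF, a p120-family catenin that binds the cadherin tail near the membrane, had 51.3 and 56.9 CPM with vehicle and 114 and 138 CPM with gomisin G. It rose by 1.22 on the log2 scale (SE 0.17, adjusted p = 0.0230). CTNNAL1, an α-catenin-like gene, had 170 and 165 CPM with vehicle and 89.5 and 78.0 CPM with gomisin G, and its log2 change was -1.002 (SE 0.16, adjusted p = 0.0280). Without vehicle replicate 1 or 2 the adjusted p was 0.124 and 0.0569 for ARVCF and 0.179 and 0.151 for CTNNAL1, with similar log2 changes.

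Plakoglobin (JUP), which serves both adherens junctions and desmosomes, was chosen for mention after its values were seen. It had 189 and 208 CPM with vehicle and 336 and 344 CPM with gomisin G, without overlap, and narrowly missed the threshold (log2 change 0.77, SE 0.16, adjusted p = 0.0548). Junction genes that also missed it, picked after their values were seen, went in both directions. They include VCL (log2 change -0.98, adjusted p = 0.0583), DSC2 (0.99, adjusted p = 0.0548) and PKP2 (-0.77, adjusted p = 0.0777). Of 14 desmosome genes 9 were tested, 1 fell and 0 rose, with a median of -0.22. Over all tested genes edgeR called 1.83%. An unadjusted p below 0.05 in edgeR was found for 4 of the 9, against 20.6% of all tested genes. The gene that fell was PKP4, a plakophilin-family armadillo protein, with 180 and 190 CPM with vehicle and 92.7 and 108 CPM with gomisin G (log2 change -0.88, SE 0.16, adjusted p = 0.0390). Leaving out either vehicle library ended its call (adjusted p = 0.259 and 0.353).

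VIM (chromosome 10, 17228259 to 17237593) encodes vimentin, the intermediate filament protein of mesenchymal cells. It had 1 and 2 counts with vehicle and 12 and 1 with gomisin G. A single library, gomisin G replicate 1, held 12 of the 13 treated counts, and the other gomisin G library lay within the vehicle range. Over both libraries of a group these are 3 and 13 counts, a gomisin G to vehicle ratio of 4.196 with an exact 95% counting interval of 1.15 to 23.0, which leaves out the spread between libraries. VIM was below the filter, and when tested without it had an adjusted p of 0.534. The call without gomisin G replicate 2 (log2 change 2.92, adjusted p = 0.0318) rests on that 1 library. Summed fibroblast markers moved in the same direction, with 4.83 and 4.91 CPM with vehicle and 8.57 and 12.1 CPM with gomisin G. Of 10 markers 6 had any count, and COL1A2, LUM, THY1 and POSTN were at 0. Most of the sum came from COL1A1 (3.17 and 3.57 CPM with vehicle, 4.63 and 7.32 CPM with gomisin G) and PDGFRB (1.45 and 1.35, 3.94 and 4.36 CPM). DCN, COL3A1, PDGFRA and FAP had at most 4 counts in any library, and the means of PDGFRA and FAP were lower with gomisin G. The library highest in VIM was not the one highest in summed fibroblast markers, and the part of fibroblast markers in the VIM counts was not tested. In bulk RNA, fewer cells of a type and less RNA per cell cannot be told apart.

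The window upstream of the VIM start is shown because this gene was near silent in 3 libraries and set apart in 1. It is the 250 bases before the RefSeq start on the plus strand, chr10:17227991-17228240 (GRCh38.p14), and no GENCODE exon overlaps it.
VIM upstream window: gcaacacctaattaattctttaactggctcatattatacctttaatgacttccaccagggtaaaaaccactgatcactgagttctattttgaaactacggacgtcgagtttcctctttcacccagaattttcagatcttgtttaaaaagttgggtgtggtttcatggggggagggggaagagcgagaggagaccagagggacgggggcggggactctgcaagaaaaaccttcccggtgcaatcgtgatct
The letters CAGGTG (an E-box bound by SNAIL and ZEB factors), GGAATG (the core of the TEAD motif, through which YAP acts) and TGANTCA (AP-1) were searched on both strands, and none is in this window. Over 35116 promoter windows of the same length 17.5% held the E-box, 11.9% the TEAD letters and 6.57% the AP-1 letters. Windows were found for 5 of the 10 genes (CDH2, FN1, VIM, ZEB1 and ZEB2).

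FN1 (chromosome 2, 215360440 to 215436172, minus strand) encodes fibronectin. It had 101 and 84 counts with vehicle and 47 and 98 with gomisin G, or 6.97, 5.65, 3.25 and 6.19 CPM. Gomisin G replicate 1 was low and replicate 2 lay within the vehicle range, so the groups overlapped. The log2 change was -0.41 (SE 0.33, 95% interval -1.18 to 0.36, adjusted p = 0.509). Keeping only treated replicate 1 gave -0.95 (adjusted p = 0.0110) and keeping only treated replicate 2 gave -0.03 (adjusted p = 0.957), so the difference lay in 1 library. Per length FN1 was at 0.363 RPKM in vehicle, above only 7.74% of tested protein-coding genes, whereas CDH1 was above 96.0% and CDH3 above 74.5%.

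Of 33 other mesenchymal genes 21 were tested, 1 rose, 0 fell and the median log2 change was 0.09, with 11 above and 10 below 0. Over all tested genes edgeR called 1.83%. At an unadjusted p below 0.05 in edgeR there were 7 of the 21, against 20.6% of all tested genes. Besides CD44, these had log2 changes of 1.57 (PDGFRB), 1.12 (S100A4), 1.02 (COL6A1), 0.83 (COL1A1), -0.40 (TGFBI) and -0.51 (NT5E). These genes, CD44 apart, were not called and are named after their values were seen. CD44, a hyaluronan receptor of epithelial and mesenchymal cells alike, had 65.2 and 68.4 CPM with vehicle and 111 and 123 CPM with gomisin G (log2 change 0.80, SE 0.16, adjusted p = 0.0477). Its adjusted p lay close to the threshold and above it with RLE factors (0.0510), without the expression filter (0.0613), with the legacy fit (0.0505) and without vehicle replicate 1 (0.445) or 2 (0.425). COL1A2, MMP2, MMP9, THY1, POSTN and LUM, also named after their values were seen, had 0 counts. The matrix gene TNC, named after its value was seen, stood out from the rest with 97.7 RPKM in vehicle, more than CDH1, and had a log2 change of 0.26 (adjusted p = 0.607). Of 14 fibronectin receptor and matrix genes 9 were tested and edgeR, DESeq2 and limma voom called 0, with 3 at an unadjusted p below 0.05 in edgeR. The fibronectin receptor subunit ITGB1 had 214 and 218 CPM with vehicle and 135 and 180 CPM with gomisin G, with an adjusted p of 0.215, and ITGB6, the partner of αv in epithelial cells, had a log2 change of 0.92 (adjusted p = 0.121).

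**Figure D4:**
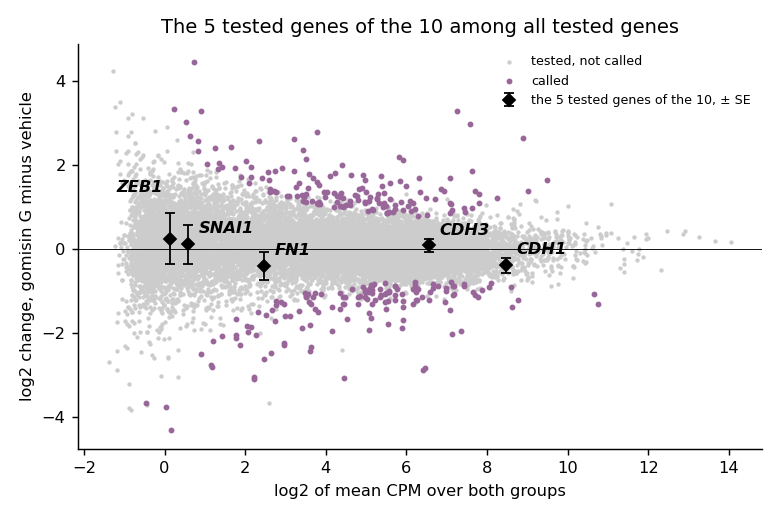
Log2 change (gomisin G minus vehicle) against log2 of the mean CPM for 15721 tested genes, with called genes in purple and the 5 tested genes of the set as diamonds with SE. All 5 diamonds lie among the genes that were not called, and the error bars are widest for ZEB1 and SNAI1, the lowest of the 5 in CPM.

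ZEB1 (chromosome 10, 31318495 to 31529814, plus strand) encodes a zinc-finger repressor of CDH1 that is held in check by the miR-200 family. It had 9 and 21 counts with vehicle and 10 and 27 with gomisin G. The groups overlapped, and the libraries numbered 2 were the higher ones in both. The log2 change was 0.25 (SE 0.60, 95% interval -1.13 to 1.63, adjusted p = 0.844), which at this depth does not separate a fall from a rise. It ranged from -0.56 to 0.95 when single libraries were left out. The antisense gene ZEB1-AS1 overlaps the start of ZEB1 and had 88 and 63 counts with vehicle and 97 and 78 with gomisin G, more than ZEB1 itself in every library. The strand setting of the counting is unknown here, and reads of ZEB1 and ZEB1-AS1 in their shared stretch cannot be told apart.

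The first of 7 RefSeq start windows of ZEB1 is shown because ZEB1-AS1 is annotated across it and because it holds an E-box. It covers the 250 bases before the start on the plus strand, chr10:31318167-31318416 (GRCh38.p14), overlapping an exon of ZEB1-AS1 and none of ZEB1, and capitals mark CAGGTG.
ZEB1 upstream window: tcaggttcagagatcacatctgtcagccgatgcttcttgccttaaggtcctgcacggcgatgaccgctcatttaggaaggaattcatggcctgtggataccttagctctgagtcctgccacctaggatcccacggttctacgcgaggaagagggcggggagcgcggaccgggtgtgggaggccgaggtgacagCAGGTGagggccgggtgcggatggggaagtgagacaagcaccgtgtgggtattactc
The E-box begins 57 bases before the start. E-boxes were found in 2 of the 7 windows, and neither the TEAD nor the AP-1 letters in any of them. No readout of binding belongs to these data.

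SNAI1 (chromosome 20, 49982999 to 49988886), which encodes the CDH1 repressor SNAIL, had 28 and 14 counts with vehicle and 26 and 21 with gomisin G. The treated libraries lay between the vehicle libraries. The log2 change was 0.12 (SE 0.47, 95% interval -0.96 to 1.19, adjusted p = 0.911). Per length SNAI1 was at 0.848 ± 0.411 RPKM and ZEB1 at 0.117 ± 0.0647 RPKM in vehicle. Which of SNAI1 and FN1 was higher cannot be read from these values, since FN1 was at 0.363 RPKM with the deposited length and at 0.795 RPKM with that of its principal transcript, against 0.848 RPKM for SNAI1 with either.

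The other repressors were at the floor of detection. ZEB2 (chromosome 2, 144364364 to 144524583) had 2 counts in vehicle replicate 1 and 0 in the other 3 libraries. SNAI2 (chromosome 8, 48917604 to 48921740), which encodes SLUG, had 3 counts in gomisin G replicate 2 and 0 elsewhere. TWIST1 (chromosome 7, 19020991 to 19117672) had 0 counts in every library. With 3 counts over the vehicle pair as the limit, TWIST1 was below 0.0501 RPKM, so CDH1 was at least 1290-fold higher per length. Neither a rise nor a fall of these 3 genes was detectable at this depth.

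Several other transcription factors linked to EMT were more abundant than the 5 of the set, among them SOX9 at 177 RPKM and GATA6 at 40.9 RPKM in vehicle, both also factors of pancreatic epithelium. Of 18 such genes 11 were tested, 1 fell and 0 rose, with a median log2 change of -0.14. Over all tested genes edgeR called 1.83%. An unadjusted p below 0.05 in edgeR was found for 5 of the 11, against 20.6% of all tested genes. The factor that fell was TCF4, a basic helix-loop-helix E-protein that binds E-boxes and is known to repress CDH1 when overexpressed. It had 6.35 and 5.85 CPM with vehicle and 1.04 and 1.45 CPM with gomisin G, with no overlap. The log2 change was -2.28 (SE 0.32, adjusted p = 0.0227), and TCF4 stayed below the threshold in all 12 alternative settings, with log2 changes of -2.55 to -2.07. This gene is distinct from TCF7L2, the Wnt effector also known by that name. The related E-protein gene TCF3 was at 283 and 295 CPM with vehicle and 253 and 265 CPM with gomisin G (adjusted p = 0.582).

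SOX9, GATA6, TCF3, PRRX1 and SNAI3 were picked out after their values were seen. PRRX1, a homeobox EMT factor with a known part in pancreatic cancer, was present at 37.9 and 38.9 CPM with vehicle and 25.8 and 30.6 CPM with gomisin G, with a log2 change of -0.44 (adjusted p = 0.201). Its level per length, 4.64 RPKM in vehicle, was above those of SNAI1 and ZEB1. SNAI3, the third SNAIL family gene, had 3.17 and 3.97 CPM with vehicle and 11.4 and 7.39 CPM with gomisin G, and missed the threshold (log2 change 1.39, SE 0.30, adjusted p = 0.0606).

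Among 19 partners and regulators of these factors 18 were tested, 2 fell, 0 rose and the median was -0.13. Over all tested genes edgeR called 1.83%. An unadjusted p below 0.05 in edgeR was found for 4 of the 18, against 20.6% of all tested genes. The 2 that fell were AJUBA (log2 change -1.45, adjusted p = 0.0109) and LATS2 (-1.20, adjusted p = 0.0391). AJUBA is a LIM protein that acts as a SNAIL corepressor and binds LATS kinases, and LATS2 is a Hippo kinase known to phosphorylate SNAIL. The LATS2 call was lost without vehicle replicate 2 (adjusted p = 0.0952). The corepressor gene CTBP1, which ZEB1 recruits, was at 207 and 206 CPM with vehicle and 211 and 221 CPM with gomisin G, with an adjusted p of 0.836. MIR200CHG, host transcript of a miR-200 cluster, had 1.52 and 1.01 CPM with vehicle and 1.93 and 1.33 CPM with gomisin G, with an adjusted p of 0.670. CTBP1 and MIR200CHG were named after their values were seen.

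TGF-beta ligands are among the best-known inducers of EMT, and the list of 18 TGF-beta signalling genes also holds inhibitors such as BAMBI and SMAD6. All 18 were tested and edgeR called 0, against 1.83% of all tested genes. An unadjusted p below 0.05 in edgeR was found for 4 of the 18, against 20.6% of all tested genes. DESeq2 called 1 of the 18 and limma voom 0, against 5.62% and 1.68% of all tested genes. The lowest p belonged to the pseudoreceptor gene BAMBI, with 62.9 and 59.8 CPM with vehicle and 107 and 86.8 CPM with gomisin G (log2 change 0.66, adjusted p = 0.0892). The inhibitory SMAD6 followed, with 2.48 and 3.16 CPM with vehicle and 5.53 and 5.11 CPM with gomisin G (log2 change 0.91, adjusted p = 0.129).

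All 25 genes of the epithelial list were tested, 1 rose and 0 fell, and 14 log2 changes were above 0 and 11 below, around a median of 0.15. Over all tested genes edgeR called 1.83%. An unadjusted p below 0.05 in edgeR was found for 8 of the 25, against 20.6% of all tested genes. The gene that rose was ELF3, an epithelium-specific ETS factor. It had 21.3 and 17.2 CPM with vehicle and 63.0 and 65.3 CPM with gomisin G. It rose by 1.73 on the log2 scale (SE 0.18, adjusted p = 0.00784) and stayed below the threshold in all 12 alternative settings. ESRP2, a splicing regulator of the epithelial state, had 146 and 135 CPM with vehicle and 78.9 and 105 CPM with gomisin G (log2 change -0.61, adjusted p = 0.124), whereas its relative ESRP1 had 25.3 and 26.2 CPM with vehicle and 29.2 and 27.9 CPM with gomisin G (adjusted p = 0.639). GRHL2, which maintains CDH1 transcription in epithelia, had 46.8 and 50.9 CPM with vehicle and 39.0 and 51.5 CPM with gomisin G (adjusted p = 0.774). ESRP2, ESRP1 and GRHL2 were chosen after their values were seen.

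**Figure D5:**
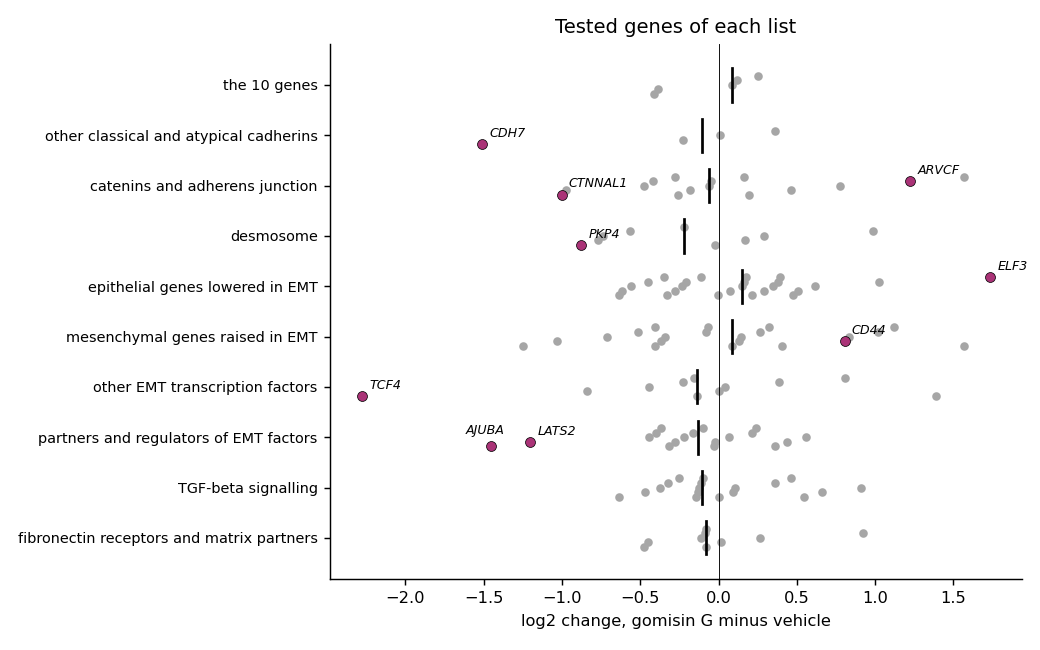
Log2 changes (gomisin G minus vehicle) of the tested genes in the 10-gene set and 9 context lists (cell type markers are not shown), with called genes as large purple points with their names and the list median as a vertical bar. The medians shown lie between -0.22 and 0.15, and the called genes are TCF4, CDH7, AJUBA, LATS2, CTNNAL1, PKP4, CD44, ARVCF and ELF3.

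Since no gene of the set was called, the one with the lowest p, CDH1, was compared with 11528 tested protein-coding genes of at least 1 in mean log2 CPM for likeness of pattern over the 4 libraries. The measure was the Euclidean distance between log2 CPM values centred per gene. The nearest were PTPRK (0.0127), HEATR6 (0.0167) and EPRS (0.0180). PTPRK encodes a receptor tyrosine phosphatase of cell contacts and EPRS the glutamyl-prolyl-tRNA synthetase. PTPRK had 44.0 and 45.0 CPM with vehicle and 30.3 and 38.3 CPM with gomisin G (log2 change -0.37, adjusted p = 0.282), so its lower value also lay in gomisin G replicate 1. With 4 libraries such likeness describes these libraries only.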

How the data were processed

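RNA was measured in 4 SW1990 libraries. The labels' protocols state extraction of total RNA, rRNA removal with Illumina Ribo-Zero and Illumina library construction. The authors deposited raw counts for each gene, not normalized, and the deposited gene length is an annotation column in bases. The submitters' processing notes name fastp, HISAT2, featureCounts and the build hg38, without versions, while strand and multi-mapping settings are not given in the sources used here. All 58735 gene identifiers and coordinates equalled those of GENCODE 29, and 0 counts differed between the whole-series and sample tables.

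Counts were fitted across all genes with edgeR 4.0.16 in R 4.3.3 (default expression filter, TMM factors, robust quasi-likelihood test, treatment alone, 2 residual degrees of freedom), with Benjamini-Hochberg adjustment over 15721 genes and a threshold of 0.05. CPM values use the TMM factors, and 95% intervals of log2 changes use the SE and the moderated degrees of freedom. RPKM uses library totals without TMM factors and the deposited length. That length merges all exons of a gene and so understates genes with long or many isoforms. On simulated data for these 15721 genes the test called 16% of genes changed 1.5-fold, 52% at 2-fold, 84% at 4-fold and 96% at 8-fold, with 4 false calls, and made 0 calls where nothing changed. In these simulated data both groups had equal dispersion, unlike the real pairs. Alternatives used DESeq2 1.42.0, limma 3.58.1, other factors, filters and a replicate block, and left out each library.

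The 10 genes, the lists and the tests were chosen with earlier results of these data known. All 10 genes are named. From each list called genes are named, or with 0 called up to 2 with the lowest p, and the 3 nearest in pattern to the called gene or that of lowest p. Genes outside this rule, other than cell type markers, are marked as such. Promoter windows are from RefSeq (GRCh38.p14). Set tests were not made. 1 immune marker is not reported here.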

Additional observations from a re-analysis of the deposited data

How the results depend on the processing

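Among the 5 tested genes, CDH1, CDH3 and FN1 kept their direction in all alternatives that tested them, and the 8 alternatives that kept all libraries called 0 of the set. Over those, the log2 change was -0.40 to -0.33 for CDH1 and 0.07 to 0.14 for CDH3. Leaving out single libraries gave -0.56 to -0.23 for CDH1, 0.05 to 0.12 for CDH3, -0.95 to -0.03 for FN1, -0.56 to 0.95 for ZEB1 and -0.31 to 0.71 for SNAI1, and 0 to 3 genes of the set called. ZEB1 reversed without vehicle replicate 1 (-0.23) and without gomisin G replicate 2 (-0.56). SNAI1 reversed without vehicle replicate 2 (-0.31) and without gomisin G replicate 1 (-0.11). With 67 and 89 counts in all, depth limits both genes. DESeq2 called 4 genes in each of the catenin, desmosome, mesenchymal and other EMT factor lists, of 15, 9, 21 and 11 tested. In the same lists edgeR called 2, 1, 1 and 1. Of the 4 further cadherins tested limma voom called 0 and edgeR 1. The shares over all tested genes were 5.62% with DESeq2, 1.83% with edgeR and 1.68% with limma voom. Over all genes the count of 287 became 883 with DESeq2 and 135 to 6322 without single libraries: 160 and 135 without vehicle replicates 1 and 2, and 2835 and 6322 without gomisin G replicates 1 and 2. A fit that leaves a group with 1 library assumes that it varies like the other group, so the spread comes from 1 pair. With the replicate number as a block 2886 genes were called and still 0 of the set, with CDH1 at -0.40 (adjusted p = 0.107). The labels share only a number. The correlation over genes of the replicate 1 deviations from their group means was 0.215. With 2 libraries per group the replicate 2 deviations mirror these and add no further value. The block was not used. Transcript lengths of the APPRIS principal isoform in GENCODE 29, an alternative chosen after seeing the data, gave a CDH1 share of 81.5% in vehicle against 81.6%. ZEB1 and SNAI1 could not be tested with a minimum of 50 counts in 2 libraries, and DESeq2 gave ZEB1 no adjusted p.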
